A study of Mus with 6 samples.

Results

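This account describes the genes of mitosis and of the G2/M phase in leukaemic stem and progenitor cells of mice. The members were every probe of the deposited array table whose platform annotation names 1 of 48 such genes, from mitotic cyclins and kinases to kinesins, kinetochore proteins and condensins. The annotation names 94 probes, of 45281 in all, for 46 of the 48 genes. Ccnb1, which encodes cyclin B1, and Mki67, the gene of the proliferation antigen Ki-67, had no named probe and were not analysed here.

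RNA came from GFP+ LSK cells, that is lineage-negative cells with Sca-1 and c-Kit on their surface, which also carried BCR-ABL p210, the fusion kinase that drives chronic myeloid leukaemia (CML). The cells were sorted from bone marrow of CML mice on day 14 after transplantation. The Klf4-deficient group held 3 arrays and the wild-type (WT) group 3 arrays. All mice are labelled C57BL/6, and both groups carried the same BCR-ABL p210 leukaemia. The labels used here do not say how Klf4 was deleted, how old the mice were or how many animals stand behind an array. The p-values below therefore reflect only the spread from array to array, which may be technical.

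A cell enters mitosis when cyclins A and B activate the kinase CDK1, aided by CDC25 phosphatases and by Polo-like and Aurora kinases. Condensins compact the chromosomes, kinesins and microtubule-binding proteins build the spindle, and kinetochores attach each chromosome to it. The spindle checkpoint holds back the anaphase-promoting complex until every kinetochore is attached. The complex then marks securin and cyclin B for destruction, separase splits the sister chromatids, and cytokinesis divides the cell. Most of these genes are transcribed mainly in G2 and M, so their RNA in a population is a common readout of dividing cells. In bulk samples, fewer dividing cells and less RNA per dividing cell cannot be told apart.

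The arrays were bright for few probes. Between 7082 and 7214 probes per array lay above an intensity of 32, the value used here as a floor, and 18270 probes exceeded it on at least 1 array and were tested. WT replicate 3 stood apart, with Pearson r of 0.29 to 0.30 to the other arrays across those probes, against 0.66 to 0.73 among the other 5, and values without it are given beside the members it moves most. Klf4 itself read 3.6, -1.9 and -2.2 in Klf4-deficient arrays and -5.1, 51.9 and -2.8 in WT arrays on its 1 probe that was above 32 anywhere, so these arrays gave no check of the knockout label, and whether the probes lie in the deleted part was not analysed here. Of 7 stem and progenitor markers, 5 had a named probe. On the probe with the highest mean for each gene, all 5 exceeded 32 on some array and none on all 6. Gata2, a transcription factor of stem and progenitor cells, read 601.6, 415.3 and 346.2 in Klf4-deficient arrays and 698.9, 534.7 and -1.9 in WT arrays. Myb, a factor of the same cells, read 968.8, 382.6 and 269 against 2071, 382.2 and 2.2 in WT. Both probes were above the floor on every array but WT replicate 3, while a second Myb probe, ILMN_2752817, read 384.8, 462 and 378.6 in Klf4-deficient arrays and 643.3, 516.8 and 100.4 in WT arrays, lowest on that array but above the floor. Kit, which encodes the c-Kit of the sort gate, read 118.1, 7.3 and 63.1 in Klf4-deficient arrays and 11.5, 17.4 and 381.5 in WT arrays. The highest value of this probe lay on WT replicate 3. A second Kit probe, ILMN_1246876, read 67.6, 16.2 and -10.8 against 12.1, 258.5 and -6.6 in WT, highest on WT replicate 2. The third, ILMN_1250169, exceeded 32 on WT replicate 3 alone (35.4). Flt3, also on this list, read 304.3, 229.9 and 42.2 against 120.4, 864.1 and -12.3 in WT. Cd34 exceeded 32 on Klf4-deficient replicate 3 alone (43.2). Markers of other blood lineages were also read, as summed intensities. Over 8 neutrophil lineage genes these were 2022.6 to 2985.7 in Klf4-deficient and 2101 to 7514.5 in WT arrays. The highest sum was on WT replicate 3, where Mpo alone read 7153.2. Other Mpo probes, ILMN_2600421, ILMN_2719256 and ILMN_2925094, read 1224.2, 13.6 and 137.9 there. Ltf (291.9) and Elane (37.4) of the list also exceeded 32 on that array, while Prtn3, S100a8, S100a9, Camp and Ngp did not. Over 5 erythroid genes the sums were 2709.2 to 3014.5 against 103 to 2802.2 in WT, lowest on WT replicate 3. Over 4 mast cell and basophil genes they were 2057.7 to 3058.4 against 1204.5 to 2352.5 in WT. The part of these lineages in the mitotic gene values was not tested.

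Mitotic transcripts were read in both groups, and on 5 of the 6 arrays more often than the average gene. With 1 probe standing for each gene, the one with the highest mean over all 6 arrays, 35 of the 46 genes exceeded the floor on at least 1 array, or 76.1%, compared with 53.7% of all 19057 genes. The Klf4-deficient arrays had 22, 20 and 17 of the 46 genes above the floor, against 19, 17 and 11 in WT arrays. The lowest count was that of WT replicate 3. There, 23.9% of the mitotic genes lay above the floor, the same share as the 23.9% of all genes, while the other 5 arrays had 37.0% to 47.8% of the mitotic genes and 21.4% to 22.0% of all genes above it. Both comparison lists had their lowest share on the same array. Of 77 other G2/M genes, 33, 26 and 29 lay above the floor in Klf4-deficient arrays and 42, 31 and 20 in WT arrays. Of 35 genes of G1/S and DNA replication, 17, 23 and 21 did so in the Klf4-deficient arrays, against 23, 21 and 10 in WT arrays.

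**Figure D1:**
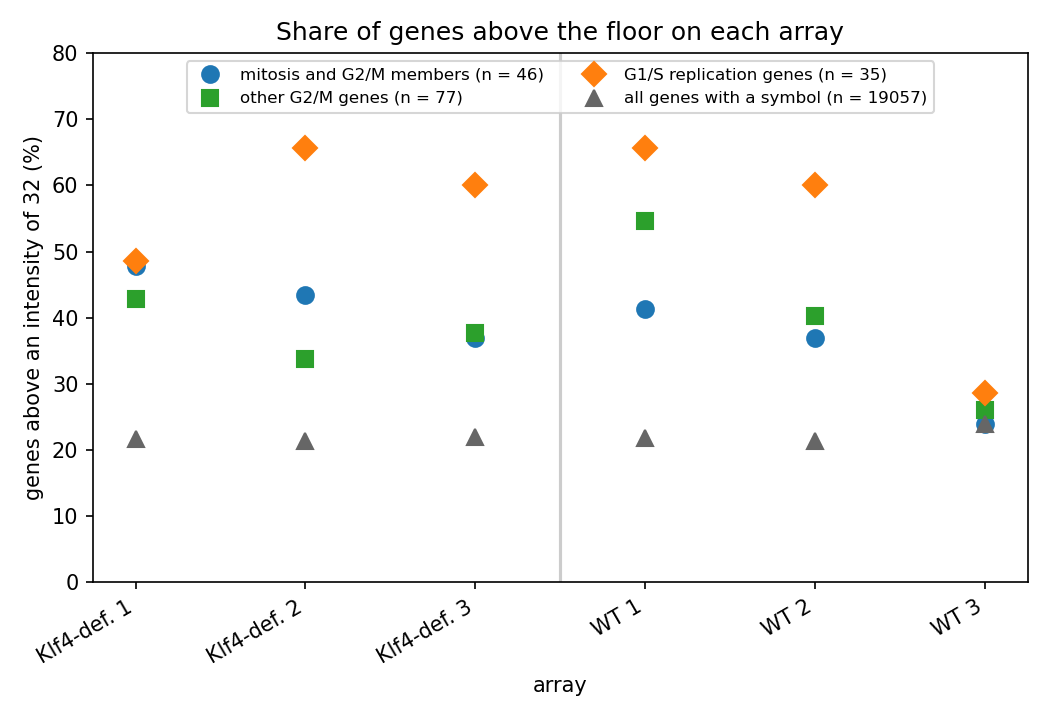
Percentage of genes above an intensity of 32 (vertical axis) on each of the 3 Klf4-deficient and 3 WT arrays (horizontal axis), for the 46 mitosis and G2/M genes, 77 other G2/M genes, 35 G1/S genes and all 19057 genes, 1 probe per gene. The mitotic genes lie at 37.0% to 47.8% on 5 arrays and at 23.9% on WT replicate 3, where they meet the points of all genes.

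Few mitotic genes were read on every array. Cenpa, the histone H3 variant that marks centromeres, and Kif23, a kinesin of the central spindle, were the 2 genes above the floor on all 6 arrays. A further 7 genes were above it on 5 arrays and 10 on 1 array alone. The 11 genes that stayed at or below the floor throughout were Ccnb2, Cdc25b, Incenp, Bub1b, Kif20a, Kif20b, Kif2c, Ube2c, Pttg1, Nuf2 and Racgap1. For these the arrays give no level and no difference. They include cyclin B2, securin (Pttg1) and UBE2C, the ubiquitin-conjugating enzyme of the anaphase-promoting complex.

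**Figure D2:**
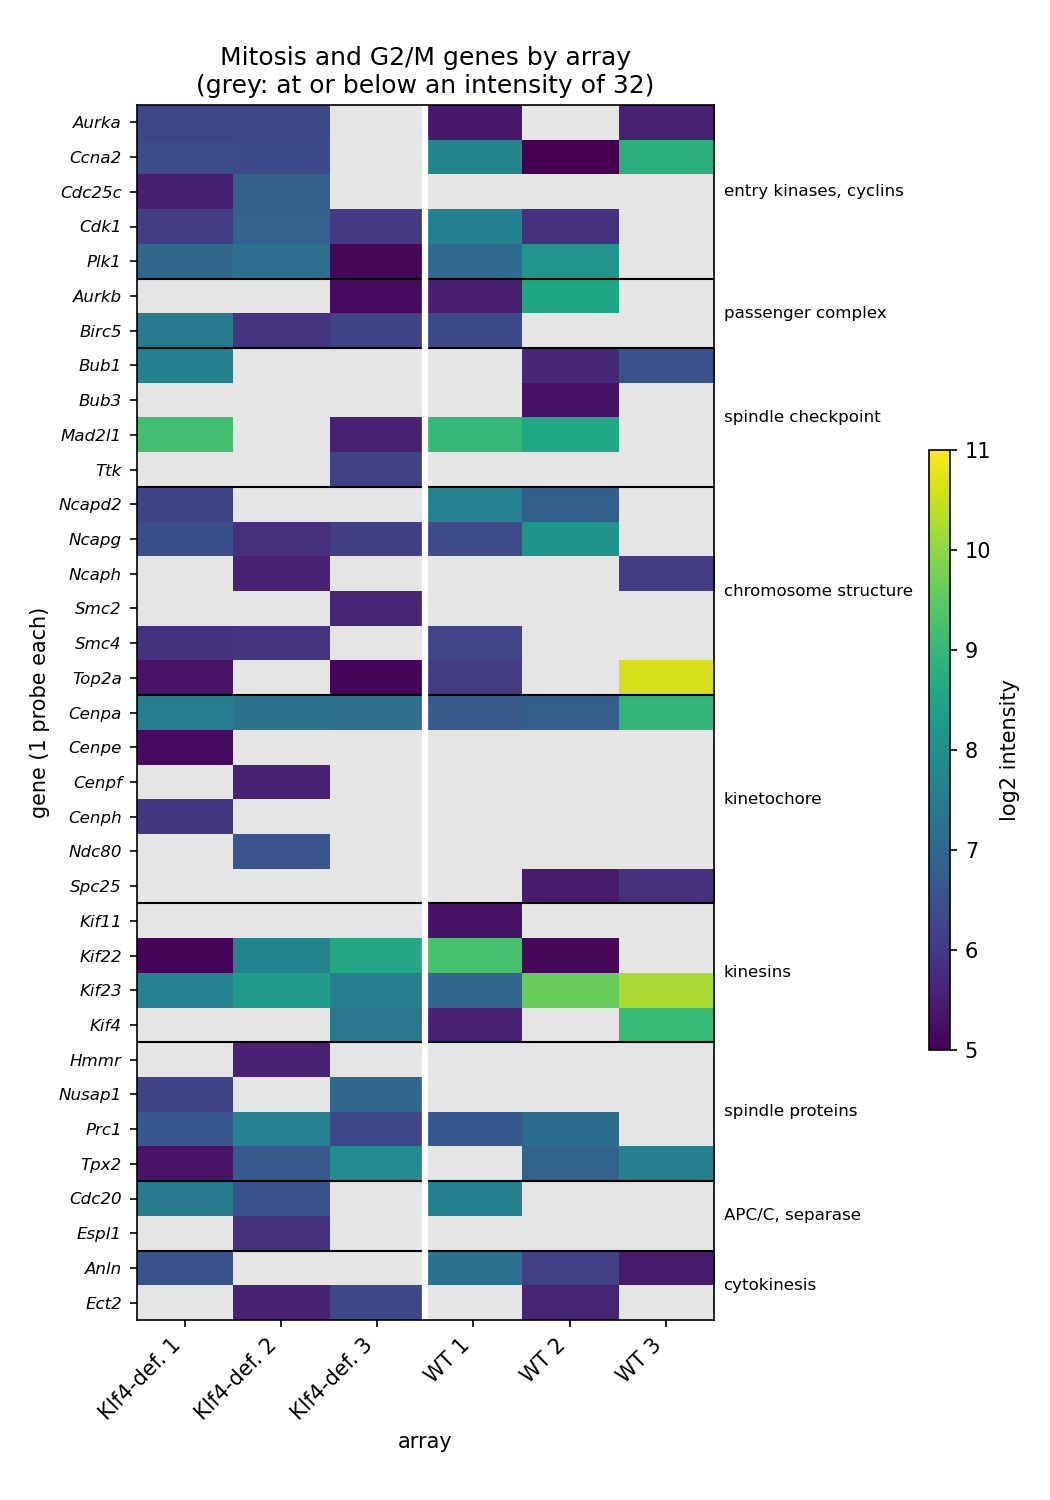
The log2 intensity (colour) of the 35 mitosis and G2/M genes above the floor on at least 1 array, in rows grouped by role, on each Klf4-deficient and WT array in columns. Grey cells are at or below an intensity of 32, and colours compare arrays along a row, not genes with each other. Cenpa and Kif23 have 6 coloured cells, and WT replicate 3 has 11 coloured cells against 17 to 22 in the other columns.

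Setting Klf4-deficient against WT arrays asks whether mitotic transcripts differ when leukaemic LSK cells lack Klf4. No mitotic gene rose or fell past the test. Of 51 member probes tested, 0 had an adjusted p under 0.05 in limma, as did 0% of all probes tested. At an unadjusted p under 0.05, the members had 0 of 51 probes and all probes 2.03%, with 1.46% higher and 0.575% lower. The 3 Klf4-deficient arrays lay wholly above or below the 3 WT arrays in 0 member probes, where 3.09% of all probes tested did so, 2.13% higher and 0.958% lower. By the sign of the difference alone, 30 member probes had a positive difference, higher in Klf4-deficient arrays, and 21 a negative one, or 58.8% higher, where 45.8% of all probes tested were higher and 54.2% lower. The lowest adjusted p among the member probes was 0.71 (limma, 3 arrays per group) and the lowest unadjusted p 0.097. Without WT replicate 3, 27 were higher and 24 lower, 52.9% higher against 54.9% of all probes tested.

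Counted by gene, 20 of the 35 were higher and 15 lower. Of these 35, 10 were above the floor only in Klf4-deficient arrays and 3 only in WT arrays, while over all genes tested the shares were 17.5% and 33.9%. Genes above the floor on WT replicate 3 alone, 2089 of all genes and 0 of the mitotic genes, fall in the last of these shares. Over all 46 genes, those at the floor counted as 0, the median difference was 0 and the mean difference -0.053 (log2), beside 0 and -0.015 over all genes. Without WT replicate 3 the mean was -0.075 over the mitotic genes and 0.0039 over all genes. The mean log2 level of the 46 genes was 5.72, 5.66 and 5.53 in Klf4-deficient arrays and 5.77, 5.65 and 5.64 in WT arrays, with the groups overlapping. Standard errors of the 35 differences ran from 0.16 to 1.60 (log2), with a median of 0.59, and all 35 of their 95% intervals held 0.

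**Figure D3:**
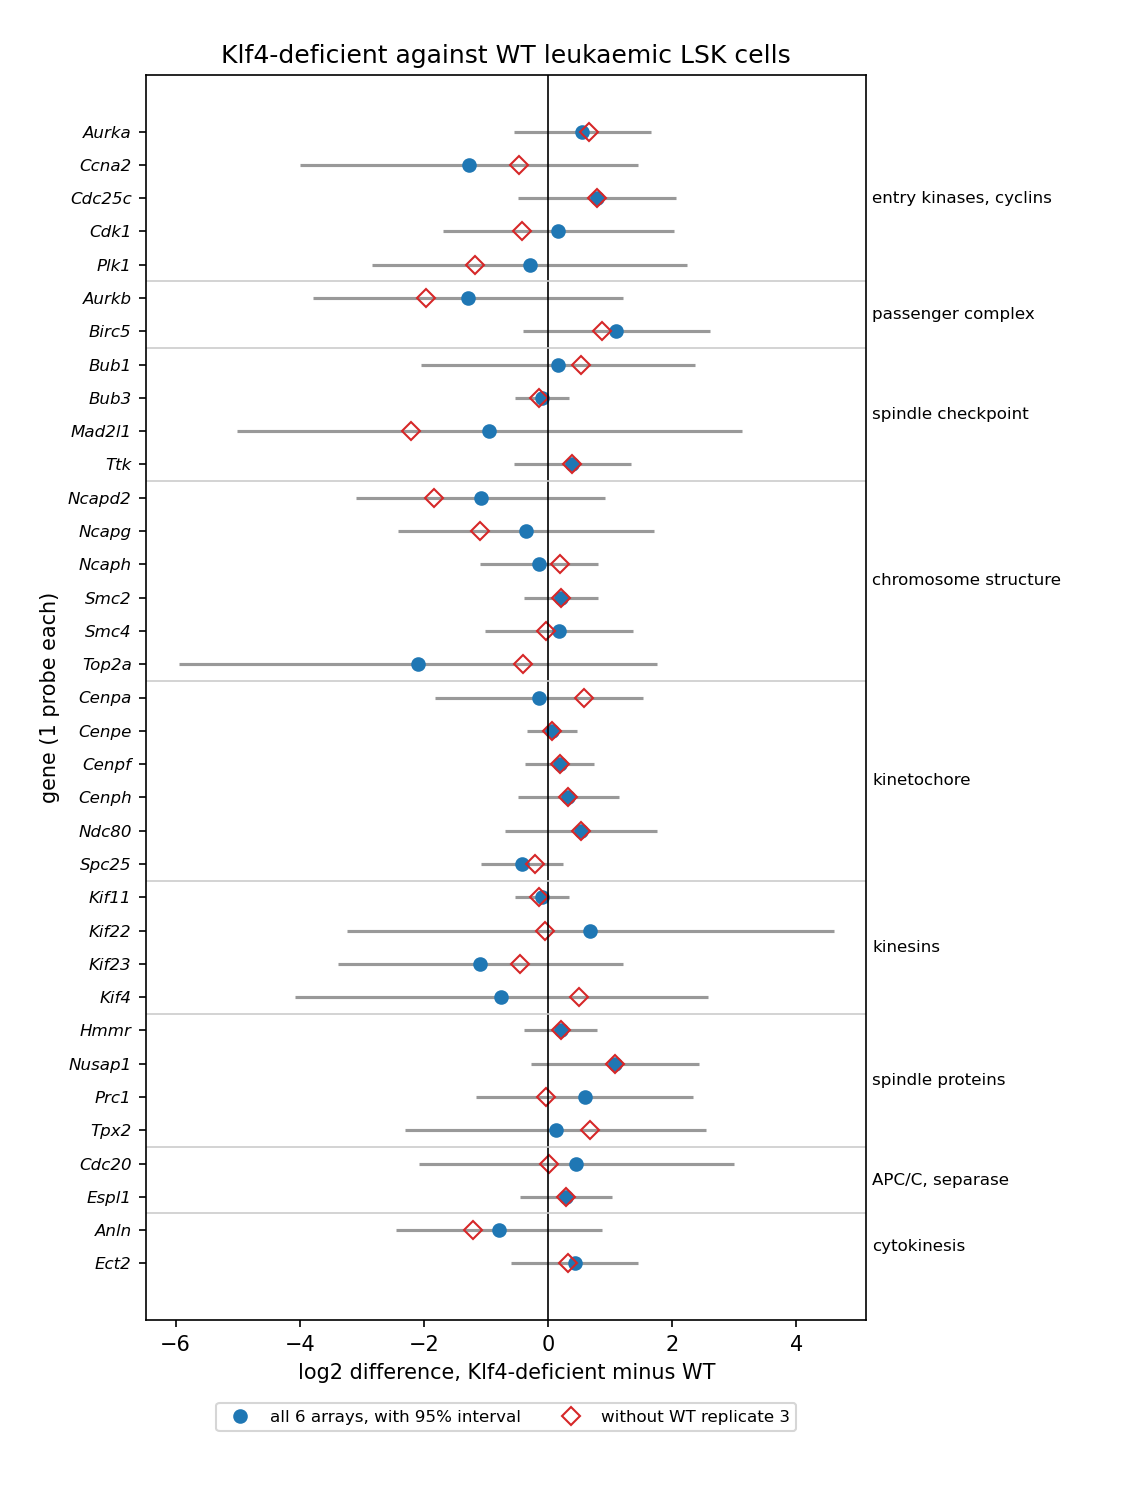
Difference in log2 intensity, Klf4-deficient minus WT (horizontal axis), for the 35 mitosis and G2/M genes above the floor on at least 1 array, with limma's 95% interval over 3 arrays per group (bars). Diamonds leave out WT replicate 3. All 35 intervals cross 0, and 7 differences change sign without that array.

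Among the genes that start mitosis, the kinases and cyclin A2 were read in both groups. Ccna2, which encodes cyclin A2, read 83.3, 80.9 and -3.1 in Klf4-deficient arrays and 212.3, 32.4 and 447.3 in WT arrays. WT replicates 1 and 3 were above every Klf4-deficient array and WT replicate 2 was not, so the groups overlapped. The difference was -1.28 ± 1.07 (log2, SE over 3 arrays per group; adjusted p = 0.71 in limma), with a 95% interval of -4.00 to 1.44, and it was -0.47 without WT replicate 3. Cdk1, the kinase that cyclins A and B activate, read 67.7, 117.6 and 65.2 in Klf4-deficient arrays and 198.2, 57.9 and -17.1 in WT arrays. The Klf4-deficient values lay between the highest and the middle WT value, and the difference of 0.17 ± 0.73 (log2, SE) became -0.41 without WT replicate 3. Other Cdk1 probes, ILMN_2657844 and ILMN_2698252, stayed at or below the floor throughout. Plk1, the Polo-like kinase of mitotic entry, read 127.1, 146.9 and 35.2 in the Klf4-deficient arrays, against 136.2, 281.5 and 1.1 in WT arrays. It was above the floor on every array but WT replicate 3, with a difference of -0.30 ± 1.00 (log2, SE), a 95% interval of -2.84 to 2.24 and a value of -1.17 without that array. Aurka, the Aurora kinase of centrosomes and spindle poles, read 79.2, 79 and 11.8 in Klf4-deficient arrays and 42.5, 6.6 and 47.2 in WT arrays. Its 2 highest values were Klf4-deficient, and the third Klf4-deficient array was at the floor (0.55 ± 0.43 log2, SE, limma adjusted p = 0.71). Cdc25c, a phosphatase that activates CDK1, is a gene singled out after its values were seen. It read 46.2, 114.9 and -10.1 in Klf4-deficient arrays and -9, 7.2 and 3 in WT arrays. Klf4-deficient replicates 1 and 2 exceeded the floor and no WT array did. On floored values the difference was 1.73-fold upward (0.79 ± 0.50 log2, SE), with an adjusted p of 0.71 in limma.

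The chromosomal passenger complex corrects faulty attachments and later directs cytokinesis. Its kinase, Aurkb, read 14.2, 19.2 and 36.4 in Klf4-deficient arrays and 45.3, 376.7 and 25 in WT arrays. WT replicates 1 and 2 were above all Klf4-deficient arrays, and WT replicate 3 was at the floor. The difference was -1.29 ± 0.99 (log2, SE, limma adjusted p = 0.71). It was -0.19 without WT replicate 2, the brightest array, and -1.97 without WT replicate 3. Birc5, which encodes survivin, read 179.7, 60.8 and 74.8 in the Klf4-deficient arrays, against 81.5, 26 and 13 in WT arrays. WT replicate 1 lay inside the Klf4-deficient range, and the difference was 1.10 ± 0.59 (log2, SE, 95% interval -0.41 to 2.60), with an adjusted p of 0.71 in limma. On these probes the Aurkb and Birc5 differences had opposite signs, although their proteins work in 1 complex. Another Birc5 probe, ILMN_2632712, differed by 0.44 (log2), and ILMN_2681241 by -0.47, the sign of Aurkb. The third member measured, Incenp, was at the floor throughout.

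Spindle checkpoint genes overlapped between the groups. Mad2l1, which encodes the checkpoint protein MAD2, read 579.4, 16.9 and 47.1 in Klf4-deficient arrays and 512.3, 380.4 and -11.7 in WT arrays. Each group held both a bright array and an array at the floor, and the difference of -0.95 had the largest standard error of the 35 genes, 1.60 (log2, n = 3 per group). Leaving out 1 array moved the Mad2l1 difference between -2.25 and -0.16, and without WT replicate 3 it was -2.21. Another Mad2l1 probe, ILMN_2776857, stayed at or below the floor throughout. Bub1, a checkpoint kinase at the kinetochore, read 199.6, 8.3 and 7.7 in Klf4-deficient arrays and 20.6, 51.7 and 89.3 in WT arrays. Its highest value was that of a single Klf4-deficient array, the other Klf4-deficient arrays being at the floor (0.16 ± 0.87 log2, SE). Ttk, the checkpoint kinase also called MPS1, and Bub3, a binding partner of BUB1, exceeded the floor on 1 array each, Klf4-deficient replicate 3 for Ttk (72.2) and WT replicate 2 for Bub3 (39).

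Genes of anaphase onset were mostly dim. Cdc20, the activator of the anaphase-promoting complex, read 176.6, 91.7 and -2.4 in Klf4-deficient arrays and 197.4, 1.6 and -7.1 in WT arrays. Its highest value was in WT and 2 WT arrays were at the floor, with a difference of 0.45 ± 1.00 (log2, SE) that became 0.015 without WT replicate 3. Espl1, which encodes separase, read 17, 58 and -3.4 in Klf4-deficient arrays and 1.3, -4.9 and -1.6 in WT arrays. Klf4-deficient replicate 2 alone was above the floor, and on floored values the group was 1.22-fold higher (limma adjusted p = 0.71).

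At the centromere and kinetochore, 6 of 7 genes exceeded the floor and 5 of them on 2 arrays or fewer. Cenpa read 183, 153.7 and 147.7 in Klf4-deficient arrays and 103, 112.9 and 491.2 in WT arrays. All Klf4-deficient arrays were above WT replicates 1 and 2 and below WT replicate 3. The Cenpa difference was accordingly -0.15 ± 0.66 (log2, SE, limma adjusted p = 0.91) with that array and 0.58 ± 0.21 without it (limma adjusted p = 0.84). Another Cenpa probe, ILMN_2471161, exceeded the floor on Klf4-deficient replicate 1 alone (99.5) and differed by 0.55 ± 0.50 (log2, SE). Ndc80, which binds microtubules at the outer kinetochore, read 6.2, 95.9 and 16.6 in the Klf4-deficient arrays, against 7.5, -4.9 and 15 in WT arrays. Cenpe, Cenpf and Cenph were likewise above the floor on 1 Klf4-deficient array each and on no WT array. Spc25, a partner of NDC80 in the same complex, read -9.1, 6.2 and -4.3 in Klf4-deficient arrays and 5.9, 43.1 and 57.7 in WT arrays, the opposite pattern. Neither gene passed the test (limma adjusted p = 0.71 for both).

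The kinesins, motor proteins that move along microtubules, had 4 of 7 genes above the floor. Kif23 read 203.6, 311.9 and 192.8 in Klf4-deficient arrays and 125.5, 785.2 and 1199.5 in WT arrays. The Klf4-deficient values lay close together, between WT replicate 1 and the brighter WT arrays, and the difference was -1.09 ± 0.91 (log2, SE, limma adjusted p = 0.71). It was -0.45 without WT replicate 3, the brightest array for Kif23, and -2.07 without WT replicate 1, the dimmest. Kif22, a kinesin that binds chromosome arms, read 34, 209.7 and 395 in Klf4-deficient arrays and 612.3, 34.9 and -14.8 in WT arrays. Both groups spanned more than the distance between them, and the difference of 0.68 ± 1.54 (log2, SE) became -0.05 without WT replicate 3. Kif4, a kinesin of chromosomes and the midzone, read 0.4, 5.7 and 165.6 in Klf4-deficient arrays and 47.9, 8.6 and 529.3 in WT arrays. Its difference of -0.75 turned to 0.50 (log2) without WT replicate 3, which held its highest value. Kif11, the motor that separates spindle poles, exceeded the floor on WT replicate 1 alone (39.1).

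By sign, all 4 spindle microtubule proteins were higher in Klf4-deficient arrays with every array in, Prc1 and Tpx2 turning with 1 array left out, and none passed the test. Tpx2, which activates Aurora A on the spindle, read 39.8, 104.6 and 237.5 in Klf4-deficient arrays and 30.1, 123.1 and 195.2 in WT arrays, nearly the same range (0.12 ± 0.96 log2, SE). Prc1, which bundles the midzone, read 99, 202.9 and 77.2 in Klf4-deficient arrays and 101.2, 140.1 and 0.7 in WT arrays. Its difference of 0.59 ± 0.69 (log2, SE) became -0.041 without WT replicate 3, the 1 array at the floor. Nusap1, a microtubule stabiliser singled out after its values were seen, had the lowest unadjusted p of the member probes. It read 74.4, 6.8 and 129.5 in Klf4-deficient arrays and 3.6, 13.7 and -5 in WT arrays. Klf4-deficient replicates 1 and 3 exceeded the floor and no WT array did. On floored values Nusap1 was 2.11-fold higher (1.08 ± 0.53 log2, SE, limma adjusted p = 0.71). Hmmr, a spindle protein that also binds hyaluronan, was above the floor on Klf4-deficient replicate 2 alone (48.6).

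Chromosome structure was the role with the most negative mean difference, -0.55 (log2) over its 6 genes, and 4 of the 6 were lower by sign. Top2a, the topoisomerase that untangles sister chromatids, read 39.6, 9.5 and 33.8 in Klf4-deficient arrays and 67, 8.4 and 1570.2 in WT arrays. That difference, -2.10 ± 1.52 (log2, SE, limma adjusted p = 0.71), rested on WT replicate 3 and was -0.40 without it. Other Top2a probes, ILMN_1242235 and ILMN_1255436, read 1.7 and -0.6 on that array. Ncapd2, a condensin subunit singled out after its values were seen, read 74.2, 4.1 and -4.5 in Klf4-deficient arrays and 203.9, 112.2 and -4.5 in WT arrays. Its WT replicates 1 and 2 were above all Klf4-deficient arrays and WT replicate 3 was at the floor. The Ncapd2 difference was -1.09 ± 0.79 (log2, SE, limma adjusted p = 0.71) with all arrays. Ncapg, another condensin subunit, read 87.4, 56.8 and 69.8 in Klf4-deficient arrays and 82.2, 273.9 and -4.5 in WT arrays. Klf4-deficient values of Ncapg lay within the WT range, with a difference of -0.35 ± 0.81 (log2, SE) that was -1.10 without WT replicate 3 and 0.45 without WT replicate 2. Other Ncapg probes, ILMN_1227448 and ILMN_2747569, differed by -0.37 and 0.79 (log2). Smc4, the ATPase of condensin, read 59.2, 59.4 and 0 in Klf4-deficient arrays and 76.2, 1.4 and -3.5 in WT arrays (0.18 ± 0.47 log2, SE). Another Smc4 probe, ILMN_2709097, had the opposite sign. It read 6.6, 9.9 and 0.3 in Klf4-deficient arrays and 118.2, 19.3 and 36.3 in WT arrays (-0.69 ± 0.55 log2, SE). Smc2 differed by 0.20, or by -0.14 on ILMN_1230786, and Ncaph by -0.15 (log2). Without WT replicate 3 the signs of the first Smc4 probe and of Ncaph turned, to -0.033 and 0.20.

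Cytokinesis was represented by Anln and Ect2. Anln, the actin-binding anillin of the contractile ring, read 90.8, 11.5 and 28 in Klf4-deficient arrays and 153.3, 72.5 and 43.5 in WT arrays. It was above the floor on all WT arrays and on 1 Klf4-deficient array, whose value lay inside the WT range, and the difference was -0.79 ± 0.65 (log2, SE, limma adjusted p = 0.71), or -0.31 without WT replicate 1 and -1.22 without WT replicate 3. Ect2, the exchange factor that activates RhoA at the cell equator, read -1, 48.5 and 79.1 in Klf4-deficient arrays and 15.7, 49.1 and 4.8 in WT arrays (0.43 ± 0.40 log2, SE). The groups overlapped in both genes.

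Without WT replicate 3, the lowest unadjusted p of the member probes was that of the condensin gene Ncapd2. Probe ILMN_2625747 of Ncapd2 read 44.2, 3.3 and -11.3 in Klf4-deficient arrays and 164.5 and 114.9 in WT replicates 1 and 2, a difference of -1.95 ± 0.30 (log2, SE; unadjusted p = 0.0022, limma adjusted p = 0.48). A second probe of the gene, ILMN_2625746, was at -1.84 ± 0.54 without that array (limma adjusted p = 0.84). The third, ILMN_2956102, was at -1.22 ± 0.83 (unadjusted p = 0.21, limma adjusted p = 0.84), with overlapping groups. The first and second were the 2 member probes at an unadjusted p under 0.05 in that fit, of 51, or 3.92%, and belong to 1 gene, where 3.56% of all probes tested reached it. Without the array the groups did not overlap in 1 member probe upward, of Cenpa, and 3 downward, of Aurkb and Ncapd2, beside 3.36% and 5.1% of all probes tested.

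Several genes had more than 1 probe above the floor, which allowed the same gene to be read more than once on an array. Probes of a gene can be annotated to different transcript records, and probes at the floor throughout form no pair. For 11 genes with such probes there were 21 pairs, of which 12 had differences of the same sign and 9 of opposite signs. That share, 57.1%, was close to the 56.4% of 6392 pairs over all genes. Across the 6 arrays, 2 probes of a gene correlated at a median Pearson r of 0.12 for the mitotic genes and 0.0084 for all genes, both as descriptions over arrays that share every probe's scaling. The range among the mitotic pairs was -0.64 to 1.00.

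Kif23 was the gene whose probes disagreed most in size. Beside the probe given above, with a difference of -1.09, ILMN_1220121 read 68.1, 174.4 and 142.6 in Klf4-deficient arrays and 14.4, 127.9 and 2.1 in WT arrays (1.23 ± 0.70 log2, SE, limma adjusted p = 0.71). The third, ILMN_2923463, read 21.9, 157.9 and 30.7 in Klf4-deficient arrays and 9.8, 123.3 and 3.2 in WT arrays (0.12 ± 0.89 log2, SE). WT replicate 3 was thus the brightest array for 1 Kif23 probe and at the floor for both others. In the annotation, those others share a transcript record and the first probe has a different one. Without that array the 3 pairs of Kif23 probes correlated at 0.62 to 0.79 over the other 5. For Birc5, the difference was 1.10 on the probe with the highest mean, 0.44 on ILMN_2632712 and -0.47 on ILMN_2681241 (log2). Klf4-deficient replicate 3 read 209.3 on the second of these and 41.7 on the third. Cdc20 had 1 probe, ILMN_2698767, that read 35, 39 and 212.7 in Klf4-deficient arrays and 37.4, 241.8 and -8.7 in WT arrays, where the probe given above was at the floor in Klf4-deficient replicate 3 and WT replicate 2, the 2 brightest arrays here. Its correlation with that probe was -0.64 over the 6 arrays, while another Cdc20 probe, ILMN_2612206, correlated with that probe at 0.77.

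Ncapd2, Nusap1, Cdc25c and Espl1 had tested probes that gave the same sign. So did Cdc20, at 0.45, 0.67 and 0.0016 (log2), the last on ILMN_2698767. All 3 Ncapd2 probes were lower in Klf4-deficient arrays, by -1.09, -1.25 and -0.75 (log2), and correlated at 0.76 to 0.96. The second Nusap1 probe, ILMN_2653765, read 0.5, 67.6 and 133 in Klf4-deficient arrays and 32, 18.3 and 5.3 in WT arrays. On floored values it was 2.06-fold higher (1.04 ± 0.54 log2, SE, limma adjusted p = 0.71). Klf4-deficient replicate 3 was the brightest array on both Nusap1 probes, while replicates 1 and 2 changed places. The second Cdc25c probe, ILMN_2637704, read 29.7, 151.3 and 5.4 in Klf4-deficient arrays and 3.7, 17.5 and 12.4 in WT arrays, and correlated with the first at 0.96. For Cdc25c both of these probes had their maximum in Klf4-deficient replicate 2. Further probes of Nusap1 (ILMN_2436761 and ILMN_3156419), Cdc25c (ILMN_2733046) and Cdc20 (ILMN_2867901) stayed at or below the floor throughout.

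**Figure D4:**
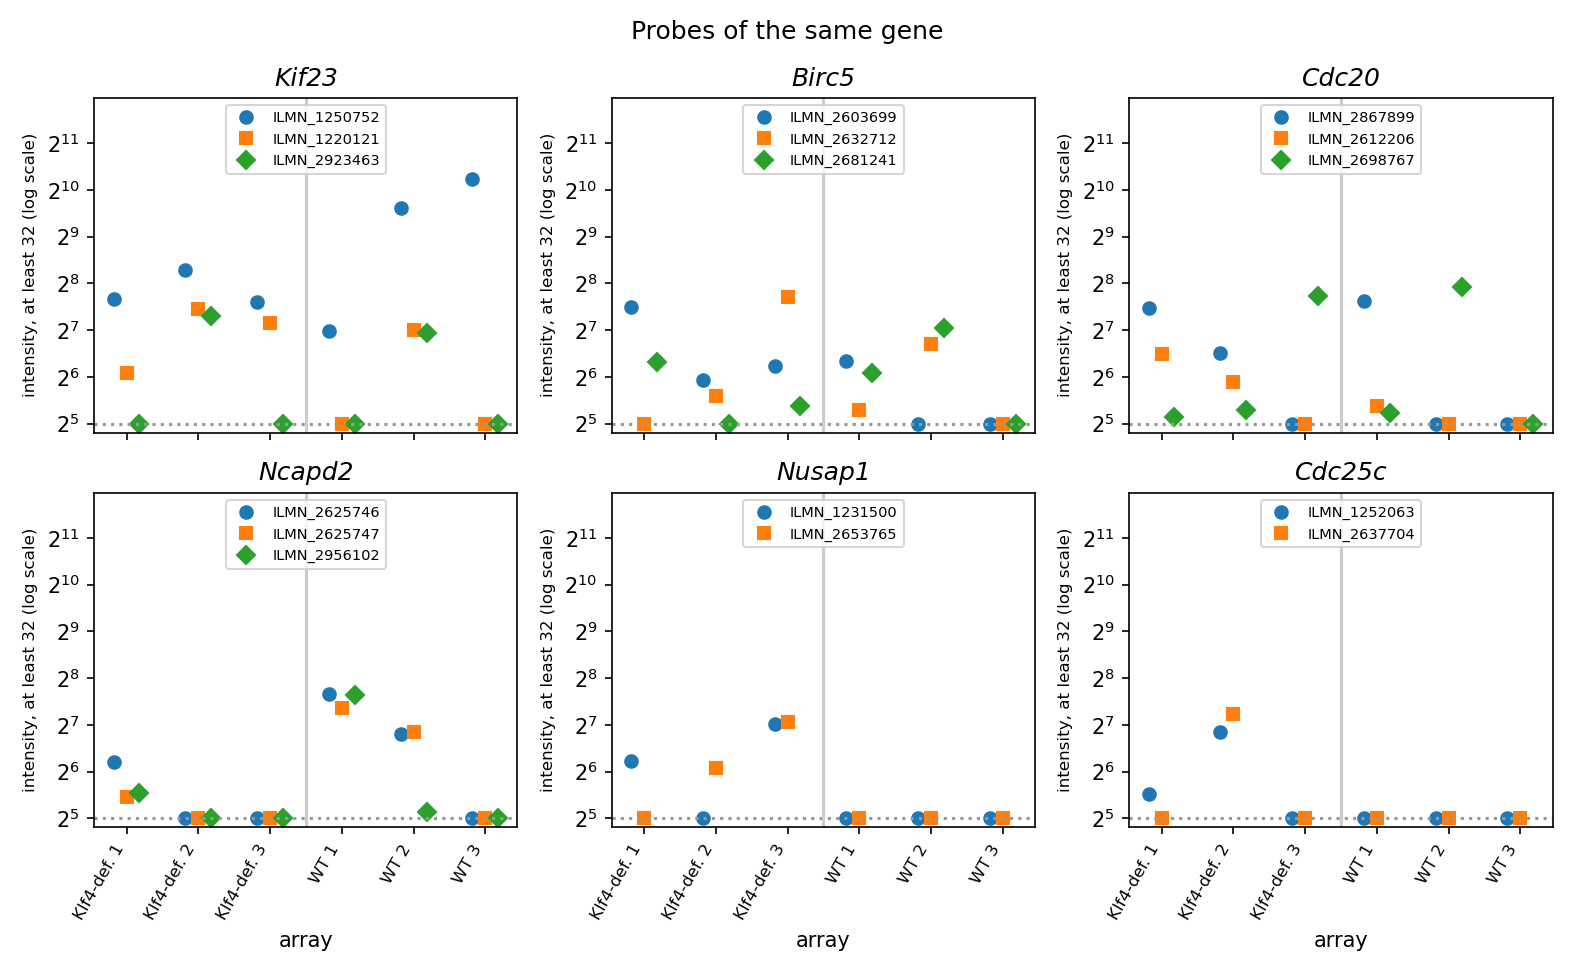
Intensity on a log scale, with values below 32 drawn at 32 (dotted line), of each probe above the floor on at least 1 array for 6 genes, on the 3 Klf4-deficient and 3 WT arrays. Pairs of probes correlate at 0.76 to 0.96 for Ncapd2 and at 0.96 for Cdc25c, at -0.049 to 0.68 for Kif23, -0.20 to 0.12 for Birc5 and -0.64 to 0.77 for Cdc20.

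Other genes of the G2/M programme, taken from a list of 81 that excludes the members, gave a like result. Of 77 with a probe, 63 were tested, 29 had a positive and 34 a negative difference, and 0 passed the test in limma, with 1 gene, Cenpt, at an unadjusted p under 0.05. Their median difference over all 77 was 0 and the mean -0.10 (log2). Foxm1, the forkhead factor that drives G2/M transcription, read 233, 17.6 and 105.9 in Klf4-deficient arrays and 7.9, 32.4 and 8.7 in WT arrays (1.52 ± 0.74 log2, SE). Mybl2, the B-Myb subunit of the complex that activates these genes, differed the other way, with 26.2, 12.8 and 15.1 in Klf4-deficient arrays and 198.8, 128.2 and 1.7 in WT arrays. All Mybl2 values of Klf4-deficient arrays were at the floor, and so was WT replicate 3. On floored values the difference was 2.92-fold lower, which is not a lower bound (-1.55 ± 0.71 log2, SE). Cdca3, a trigger of mitotic entry, read 62.7, 236.7 and -19.1 in Klf4-deficient arrays and -12, 32.8 and -10.5 in WT arrays, and Cks2, a CDK-binding subunit, 181, 137.6 and 116.9 against 94.6, 152.9 and 11.5 in WT. Spag5, a spindle and kinetochore protein, read 50.7, 30.2 and 73.8 in Klf4-deficient arrays and 60, 207.9 and 445.9 in WT arrays. Cenpt, which links the centromere to the outer kinetochore, read 18.9, 17.6 and 39 in Klf4-deficient arrays and 41.2, 57 and 55.6 in WT arrays. Only in Cenpt, of these 6 genes, did the groups not overlap (-0.57 ± 0.21 log2, SE, unadjusted p = 0.043, limma adjusted p = 0.71). Over the whole list they did not overlap in 2 genes, Cenpt and Kif15, both lower in Klf4-deficient arrays. That is 3.17% of the genes tested in the list, beside 3.49% of all genes tested. Among the 28 tested genes of G1/S and DNA replication, 14 were higher and 14 lower, 0 passed the test in limma, and 2 (Tyms and Fen1) had an unadjusted p under 0.05, which is 7.14% of those genes beside 2.32% of all genes tested.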

How the data were processed

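The authors deposited 1 intensity per probe and array, on a linear scale, from Illumina bead arrays that a service laboratory prepared and scanned (per the labels' protocols). BeadStudio is named in the submitters' processing notes. Its version, background method and normalization were not given in the sources used. Values ran from -31 to 37007, with 45.3% to 45.6% per array at or below 0, as after background subtraction, and column medians were 1.6 to 1.7. Of the probes, 34885 had 1 gene symbol, 18 several and 10378 were not listed in the annotation. Values under 32 were set to 32 and log2 was taken, which alters differences of dim genes. Where 1 group lay wholly at 32, a fold is the other group's floored mean against it. Such a fold is not a lower bound where arrays of that other group also lay at 32.

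The 18270 probes above 32 on at least 1 array were compared between groups with limma 3.58.1 in R 4.3.3 (lmFit and eBayes), with Benjamini-Hochberg adjustment over all of them. For each gene the probe with the highest mean over all arrays stands. The members and lists were chosen with earlier results of these data known. Named by value were the 2 genes of each of 9 roles with the highest mean, members whose groups did not overlap (0 genes), called members (0), Cdk1, Plk1, Aurka, Top2a and Birc5, Klf4, up to 3 genes each way of the second G2/M list, and genes said to be singled out. The number of arrays limits the precision. No pairing of arrays by replicate number was stated, and the main fit used none. Sequences and genome positions were not analysed. Alternatives covered the floor, log scale, filter, scaling, probe choice, variance model, array weights, a replicate block and each array left out.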

Additional observations from a re-analysis of the deposited data

How the results depend on the processing

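Under 20 alternatives, the number of mitotic features called stayed at 0 and the median difference of the 46 genes at 0, genes not above the filter counting as 0. Over all probes 0 were called, except 1 without the filter on dim probes, 1 with probes averaged per gene and 1 with the ordinary t statistic, each time the unnamed probe ILMN_2944601. Member probes at an unadjusted p under 0.05 in limma numbered 0 with all arrays and 1 to 2 with an array left out. Those were 2.08% to 4.08% of the member probes tested, beside 2.61% to 4.73% of all probes tested. Over all probes the counts were 449 to 809, against 371 with all arrays. The members were Nusap1 without Klf4-deficient replicate 1 or 2, Cdc20 and Aurka without Klf4-deficient replicate 3, Kif23 and Birc5 without WT replicate 1, Kif23 and Ccna2 without WT replicate 2, and Ncapd2 without WT replicate 3. Array weights gave 2 member probes (Ncapd2), or 3.92% beside 3.30% of all probes. The filter at percentile 75 gave 1 (Top2a), or 2.56% beside 4.01%. Over all probes that count was 569 with a floor of 16, 246 with a floor of 64, 584 and 693 with offsets of 32 and 16, 247 without the filter, 175 with trend and robust eBayes, 239 with the ordinary t statistic and 603 with array weights. The mean difference of the 46 genes, -0.053 (log2), was 0.024 with a floor of 16, -0.13 with a floor of 64, 0.019 and 0.079 with offsets of 32 and 16, and lay between -0.095 and -0.0011 with an array left out. Member probes split into 20 higher and 20 lower with a floor of 64, and into 22 higher and 23 lower without Klf4-deficient replicate 2. Between arrays of the same replicate number, deviations from the group mean correlated at 0.032 to 0.040. Arrays of unlike number were not compared, so this does not decide whether the numbers pair the arrays. A replicate block in limma called 0 probes, 0 of them members, with Birc5 at an unadjusted p of 0.014 (adjusted p = 0.75). Birc5 was the 1 member probe at an unadjusted p under 0.05 there, or 1.96% beside 1.98% of all probes.

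Of 20 named members, 10 kept their sign under the alternatives that gave a value. Signs turned for Cdk1 with a floor of 64 (-0.22) and array weights (-0.43). They turned for Plk1 with a floor of 16 (0.033) and offsets of 32 (0.044) and 16 (0.21), and for Bub1 under the same settings (-0.30, -0.18 and -0.36). Cenpa turned with centred arrays (0.0085), the probe mean (0.20) and array weights (0.52), Kif22 and Cdc20 with array weights (-0.20 and -0.090), Kif23 with the probe mean (0.065), and Ncapg with an offset of 16 (0.17) and the probe mean (0.021). With an array left out, ranges were -0.41 to 0.90 for Cdk1, -1.17 to 0.40 for Plk1, -0.72 to 0.60 for Bub1, -0.55 to 0.58 for Cenpa, -0.061 to 2.08 for Kif22, -0.64 to 0.78 for Tpx2, -0.12 to 1.33 for Cdc20, -0.041 to 1.02 for Prc1 and -1.10 to 0.45 for Ncapg. Without a turn of sign they were -2.36 to -0.47 for Ccna2, -1.97 to -0.19 for Aurkb, -2.25 to -0.16 for Mad2l1, -3.21 to -0.40 for Top2a, -2.07 to -0.45 for Kif23 and -1.29 to -0.31 for Anln. Adjusted p-values of these 20 members were 0.43 or more throughout. The lowest of any member probe was 0.33, in limma with array weights. The cause of these turns was not tested. With 3 arrays per group and a median SE of 0.59 (log2), a difference in these genes was not detectable at this signal, which does not show that none exists.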
